A study of Mus musculus with 9 samples.

Results

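Fibroblast growth factor (FGF) signalling was described in 4 arrays of undifferentiated E14 embryonic stem cells (ESCs) and 5 arrays of E14 embryoid bodies, through 39 genes for the ligands, the receptors, an adaptor pair and the inhibitors and transcription factors that the pathway switches on. A gene was represented by the Affymetrix probe set with the highest mean over the 9 arrays among the probe sets that the array's annotation pairs with that gene alone. This left 38 of the 39 genes, out of 18193 genes represented in the same way. Frs2, the docking protein of FGF receptors, had no such pairing in the annotation used and was not analysed here. E14 is a mouse ESC line, and no treatment, genetic change, culture time or age in days was given for either group. ESCs carry the array numbers 2, 6, 8 and 10, and embryoid bodies, which are aggregates in which ESCs differentiate, the numbers 1, 3, 5, 7 and 9. The 4 ESC samples were biological replicates of a single line, and whether the embryoid body samples came from separate cultures was not given, so P values measure the spread between these samples only.

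FGF ligands are secreted proteins that bind receptor tyrosine kinases together with heparan sulfate, and activated receptors signal through Frs2, Grb2, Ras and the kinases MEK and ERK. ERK activity in turn raises the ETS factors Etv4 and Etv5 and the inhibitors of the Sprouty, Spred and Dusp families, which damp the signal. In mouse ESCs, Fgf4 made by the cells themselves drives ERK and primes them to leave self-renewal, and Fgf5, Fgf8 and Fgf15 mark later steps of embryonic differentiation.

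All values are log2 levels from GCRMA, a method that subtracts background by probe sequence. Levels of different probe sets cannot be compared, because probes bind with different strength. Between 49.1% and 49.9% of all probe sets on each array read under log2 4, a range near the floor of the scale. Pairs of arrays of the same group correlated at 0.995 to 0.999 (Pearson r across probe sets), and pairs of 1 ESC and 1 embryoid body array at 0.968 to 0.977. The labels were checked with marker genes. Of 7 pluripotency markers, 6 fell in embryoid bodies and Esrrb did not pass the test. Esrrb has 3 probe sets and was read from an _x_at set. The paper left out that type because its probes may bind RNA of other genes, so this does not show that Esrrb was kept. The summed linear level of the 7 markers was 15213 to 16577 on ESC arrays and 2053 to 3049 on embryoid body arrays. Heart and mesoderm markers summed to 249 to 533 and 7951 to 9270, and 4 of 6 rose, with Mesp1 under log2 4 on all arrays. Fibroblast and mesenchyme markers summed to 236 to 734 and 9336 to 10216, and 4 of 5 rose, with Thy1 under log2 4 throughout. Visceral endoderm markers rose in 2 of 5 cases (summed levels 94.7 to 135 and 399 to 622, with Apoa1 under log2 4), and neural markers moved both ways, Sox1 rising and Pax6 falling (408 to 601 and 436 to 673, with Map2 under log2 4). A sum of linear levels is set mostly by its highest probe sets and does not stand for the whole list. In embryoid bodies these were Actc1 (mean 12.45) and Myl7 (11.46) for heart and mesoderm, and Col3a1 (12.49) for mesenchyme. In bulk RNA of this kind fewer cells of a type cannot be told apart from less RNA per cell. The part of these markers in the FGF results was not tested.

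In embryoid bodies the ligand Fgf4 fell to the floor and the ETS factor Etv5 fell 5.18-fold, while the ligand Fgf15 rose from the edge of the floor. The receptors Fgfr1, Fgfr2 and Fgfrl1 rose by less, at 1.61-fold to 2.0-fold. These rises were read from _s_at and _a_at probe sets. The paper kept only the _at type, because other types may bind RNA of other genes. With plain _at probe sets 0 of 4 receptors rose, those of Fgfr1 and Fgfr2 being near the floor. Of the feedback inhibitors, Spry2 and Spry4 fell and Dusp4 and Dusp6 rose. Of the 38 genes, 12 were called at an adjusted p under 0.05 (limma, Benjamini-Hochberg over 45037 probe sets), 7 higher and 5 lower in embryoid bodies. That is 31.6% of the genes, against 30.4% of all genes, with 15.7% of all genes called higher and 14.7% called lower, a share near that background. At a difference of at least 2-fold, 4 of the 38 were called (10.5%), against 9.51% of all genes. The 2 groups of arrays did not overlap for 14 of the 38 (36.8%), against 35.0% of all genes. Among genes that reached log2 4 on at least 1 array, 12 of 26 FGF genes were called (46.2%), against 43.6% of such genes. The median difference was -0.08 for the 22 ligands, 0.69 for the 5 receptors and -0.04 for the 10 feedback genes, beside -0.04 for all genes.

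**Figure D1:**
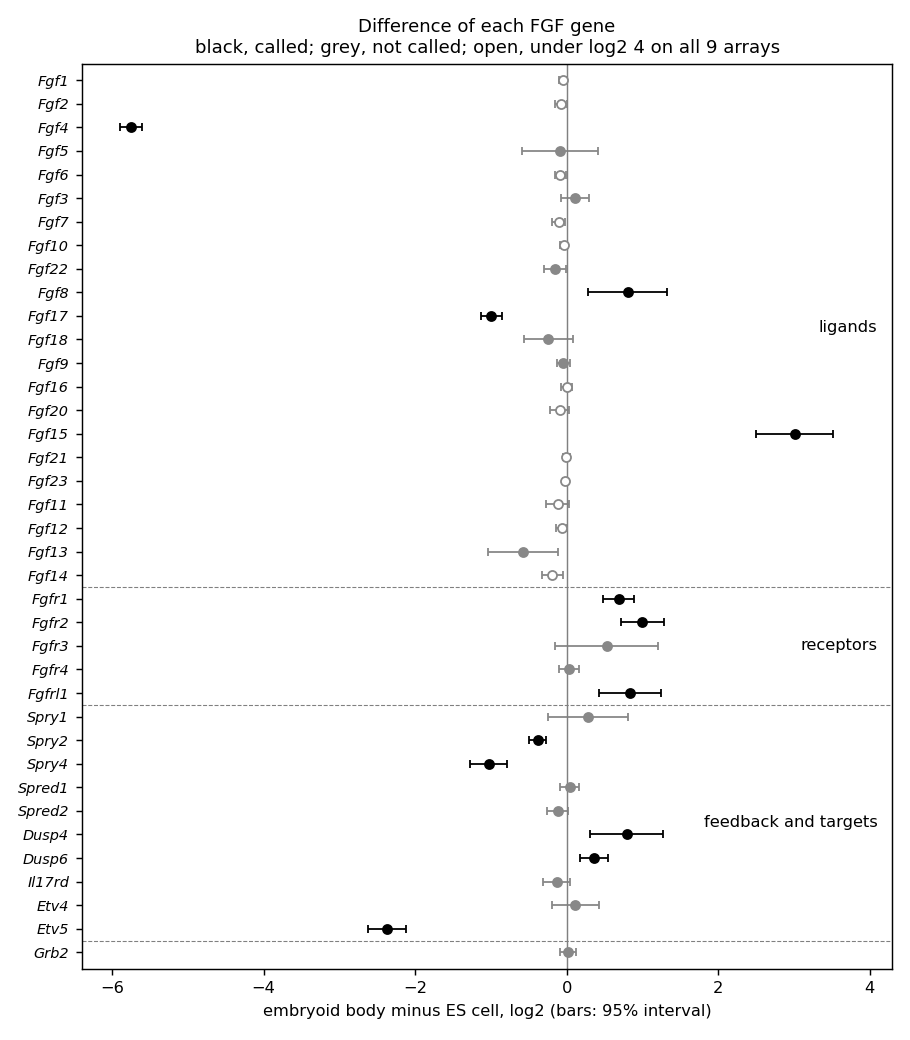
Embryoid body minus ESC difference in log2 level (horizontal axis) for the 38 FGF genes by role, with 95% intervals from limma; black marks called genes, grey genes that were not called, and open circles genes under log2 4 on all 9 arrays. Fgf4 and Etv5 lie far to the left and Fgf15 far to the right, and the 3 called receptors lie between 0.69 and 1.0.

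The promoters of the genes with the largest falls, Fgf4 and Etv5, are shown because both genes fell. The sequences are the 250 bases before the start in RefSeq (build GRCm38.p6), and capitals mark GC boxes, the letters GGGCGG or their reverse complement, which bind Sp1 family factors. The Fgf4 window is chr7:144861136-144861385 on the plus strand, and the Etv5 window is chr16:22439571-22439820 on the minus strand, before the more upstream of the 2 starts listed.

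Fgf4: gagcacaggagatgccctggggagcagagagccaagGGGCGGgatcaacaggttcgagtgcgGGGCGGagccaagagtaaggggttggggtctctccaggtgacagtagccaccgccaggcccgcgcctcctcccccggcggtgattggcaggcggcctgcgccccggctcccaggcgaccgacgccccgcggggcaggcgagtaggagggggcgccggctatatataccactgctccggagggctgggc
Etv5: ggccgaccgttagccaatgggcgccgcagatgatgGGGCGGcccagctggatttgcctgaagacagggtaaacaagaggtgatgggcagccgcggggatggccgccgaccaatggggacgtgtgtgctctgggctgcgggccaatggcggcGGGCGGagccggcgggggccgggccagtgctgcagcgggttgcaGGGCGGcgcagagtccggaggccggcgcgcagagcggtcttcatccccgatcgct

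Both windows were 71.2% G and C. Fgf4 held 2 GC boxes and Etv5 3, a motif found in 32.7% of all 32851 windows of this length. Neither held the ETS letters CCGGAA (12.0% of windows), the octamer ATGCAAAT of Oct4 and its relatives (1.60%), the SOX letters ACAAAG (16.5%) or the TATA letters TATAAA (12.4%) on either strand. The window before the other Etv5 start held none of these 5 motifs. Sequence outside the 250 bases, enhancers included, was not searched. The absence of a motif here therefore does not show that Fgf4 or Etv5 lacks such sites. Only exact letters were counted, so the stretch tatatata near the end of the Fgf4 window, close to the start, did not count as TATA letters. A window was searched for 28 of the FGF genes, of which 19 held a GC box, 5 the SOX letters, 4 the ETS letters and 0 the octamer. Members on a chromosome left out of this search, and members without a listed window, were not counted, Spry4 and Fgf15 among them. Several of the 28 genes have more than 1 window. Their counts are per gene over all its windows, unlike the shares above, which are per window.

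Of the 22 ligands, 2 fell, 2 rose and 18 were not called. That is 18.2% called, beside 30.4% of all genes. Among the 10 ligands that reached log2 4 on an array it is 40%, beside 43.6% of such genes. Fgf4, the ligand that ESCs make for themselves, read 7.76, 7.88, 7.86 and 7.97 on ESC arrays 2, 6, 8 and 10. It read 2.24, 2.18, 2.12, 2.01 and 2.0 on embryoid body arrays 1, 3, 5, 7 and 9. The groups were far apart, and all 5 embryoid body values lay near the floor. Fgf4 fell by 5.75 on the log2 scale (SE 0.06, 95% interval -5.90 to -5.61, adjusted p = 1.94e-10 by limma). A second Fgf4 probe set fell by 5.89 (SE 0.11), whereas another pair read near the floor in both groups, with differences of -0.20 and -0.04. The size depends on how the floor is treated: it was -3.62 on the log2(value + 16) scale and -2.97 as a mean over the 4 probe sets, with the same call.

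Fgf15, an ortholog of human FGF19 that is expressed in the early neural tube and later acts as a gut hormone, moved the other way. It read 3.70, 4.06, 3.70 and 4.20 on the 4 ESC arrays and 7.42, 6.79, 7.07, 7.12 and 6.24 on the 5 embryoid body arrays. Every embryoid body array lay over 2 log2 units above every ESC array, and the ESC values lay near the floor. Fgf15 rose by 3.01 (SE 0.22, 95% interval 2.50 to 3.52, adjusted p = 1.26e-05 by limma). The size depends on the floor here too, and was 2.15 on the log2(value + 16) scale, with the same call. Fgf15 was one of 3 members in a row among protein-coding genes of chromosome 7, in the order Fgf3, Fgf4, Fgf15. The next-door genes Fgf4 and Fgf15 thus changed in opposite directions, and Fgf3, a ligand of inner ear and tail development on the other side of Fgf4, went from 4.82 ± 0.15 (SD, n = 4) to 4.93 ± 0.11 (SD, n = 5) and was not called (adjusted p = 0.261 by limma).

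The Fgf8 subfamily, whose ligands pattern the primitive streak, the limb and the brain, held a fall and a rise. Fgf17 read 4.98, 4.80, 5.13 and 4.94 on ESC arrays and 3.96, 3.99, 3.88, 4.01 and 4.01 on embryoid body arrays, so that embryoid bodies were at the edge of the floor. It fell by 0.99 (SE 0.06, adjusted p = 4.66e-06 by limma), by 0.58 on the log2(value + 16) scale and by 0.61 as a mean over its 2 probe sets, of which the other stayed under log2 4. Fgf8 read 5.26, 5.24, 4.97 and 5.0 on ESC arrays and 6.13, 6.54, 6.04, 5.61 and 5.29 on embryoid body arrays. The groups did not overlap, but embryoid body array 9 lay only just above the highest ESC array. Fgf8 rose by 0.80 (SE 0.23, 95% interval 0.29 to 1.32, adjusted p = 0.0343 by limma), and leaving out single arrays moved the adjusted p past 0.05 in 6 of 9 cases, up to 0.0875. Fgf18, the third member, had 5.92 ± 0.29 (SD, n = 4) in ESCs and 5.68 ± 0.19 (SD, n = 5) in embryoid bodies and was not called (adjusted p = 0.193 by limma).

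Fgf5, a marker of the epiblast after implantation, did not separate the groups. It read 7.67, 7.66, 7.0 and 7.04 on ESC arrays 2, 6, 8 and 10 and 7.49, 7.60, 7.46, 6.99 and 6.75 on embryoid body arrays 1, 3, 5, 7 and 9. In both groups the arrays numbered 7 and above lay under the arrays numbered 6 and below. The difference between the groups was -0.09 (SE 0.22, 95% interval -0.59 to 0.42, adjusted p = 0.758 by limma). Fgf13, an intracellular FGF that binds sodium channels and microtubules and not the receptors, had 8.22, 8.20, 7.96 and 7.77 in ESCs and 6.82, 7.40, 7.48, 7.89 and 7.73 in embryoid bodies. Its groups overlapped, and the difference of -0.57 (SE 0.21) was not called (adjusted p = 0.0774 by limma). It was called with quantile normalization (-0.67, adjusted p = 0.0370 by limma) and with array weights (-0.60, adjusted p = 0.0116).

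**Figure D2:**
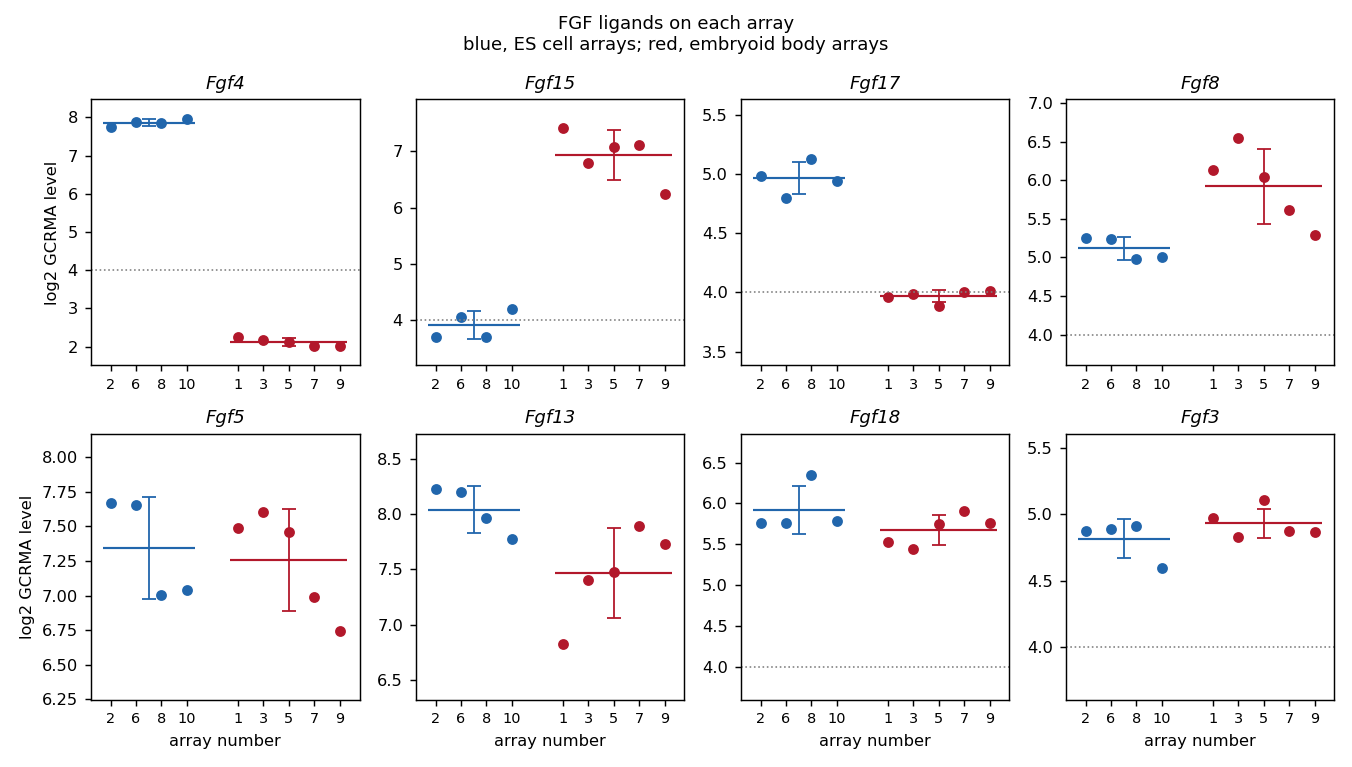
Log2 GCRMA level (vertical axes, each with its own range) of the 8 ligands described here on each array (horizontal axis, array numbers), with ESC arrays in blue, embryoid body arrays in red, horizontal lines at the group means, bars of 1 SD and a dotted line at log2 4. Fgf4 goes from near 8 to near 2, Fgf15 from near 4 to near 7, and Fgf5 is lower on the arrays of higher number in both groups.

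The other 14 ligands were Fgf9, Fgf22 and 12 genes that stayed under log2 4 on all 9 arrays. The 12 were Fgf1 and Fgf2, which lack a classical signal peptide, Fgf6, Fgf16 and Fgf20, the mesenchymal ligands Fgf7 and Fgf10, the hormones Fgf21 and Fgf23, and the intracellular Fgf11, Fgf12 and Fgf14. Their levels were 2.03 to 3.71 and their differences -0.19 to 0.00. None of these 12 was called, and 11 of the 12 means were lower in embryoid bodies. Of the 12, ESC array 10 was the highest ESC array for 9 and embryoid body array 1 the lowest embryoid body array for 10, and over all 21049 probe sets never at log2 4 the array medians were likewise highest on ESC array 10 (2.73) and lowest on embryoid body array 1 (2.61). Fgf22 was at 4.13 ± 0.15 (SD, n = 4) and 3.98 ± 0.04 (SD, n = 5), with groups that did not overlap and no call (adjusted p = 0.0924 by limma). Fgf9, a ligand of gonad and lung development, read 5.37 to 5.50 over the 9 arrays and was not called (adjusted p = 0.344 by limma).

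Of the 5 receptor genes, 3 rose in embryoid bodies, 0 fell, and 0 reached the 2-fold mark. That is 60% of only 5 genes, beside 30.4% of all genes and 43.6% of genes that reached log2 4 on an array. Fgfr1, the receptor that carries most FGF signalling in ESCs and mesoderm, read 8.48, 8.72, 8.78 and 8.88 on ESC arrays and 9.35, 9.59, 9.37, 9.34 and 9.36 on embryoid body arrays. It rose by 0.69 (SE 0.09, 95% interval 0.49 to 0.89, adjusted p = 0.000387 by limma). Another probe set rose by 0.53 (SE 0.12), while the third, the plain _at probe set of the gene, stayed at 2.90 in ESCs with a difference of -0.02 and no call.

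Fgfr2, which in the embryo marks primitive endoderm, trophoblast and epithelia, read 7.61, 7.62, 7.08 and 7.34 on ESC arrays and 8.46, 8.54, 8.52, 8.24 and 8.30 on embryoid body arrays. The groups were well apart. It rose by 1.0 (SE 0.12, 95% interval 0.72 to 1.28, adjusted p = 0.000296 by limma), 2.0-fold when rounded and just under the 2-fold mark. A second probe set rose by 0.68 (SE 0.09), and the plain _at probe set was near 2.27 with a difference of 0.00. Fgfrl1, a receptor without a kinase domain that binds FGFs, read 7.76, 8.13, 7.24 and 7.37 on ESC arrays and 8.37, 8.42, 8.21, 8.65 and 8.65 on embryoid body arrays, and rose by 0.83 (SE 0.18, adjusted p = 0.00890 by limma). Its other probe set rose by 0.79 (SE 0.07).

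Fgfr3 and Fgfr4 were not called. Fgfr3, a receptor of cartilage and neural tissue, read 5.52, 5.53, 4.07 and 5.52 on ESC arrays and 6.04, 5.63, 5.52, 5.72 and 5.52 on embryoid body arrays. ESC array 8 stood apart from the other arrays in its difference of 0.53 (SE 0.30, 95% interval -0.15 to 1.21, adjusted p = 0.170 by limma). The other 3 ESC values, 5.52 to 5.53, were level with embryoid body arrays 5 and 9. ESC array 10 and embryoid body arrays 5 and 9 gave the same reading, 5.51748. Whether that is a floor of this probe set was not tested. Fgfr4, a receptor of endoderm and muscle, stayed between 4.11 and 4.41 on all arrays, with a difference of 0.03 (95% interval -0.10 to 0.16), and the other 4 of its 5 probe sets were under log2 4.

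**Figure D3:**
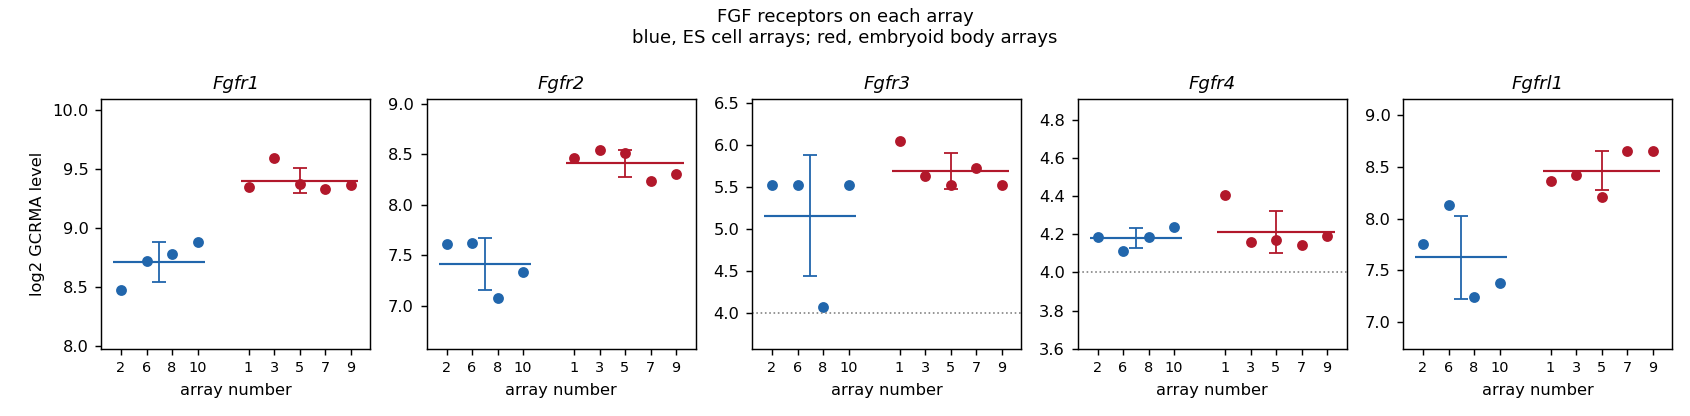
Log2 GCRMA level (vertical axes, each with its own range) of the 5 receptor genes on each array (horizontal axis, array numbers), drawn with group means and bars of 1 SD. The embryoid body arrays (red) lie above all ESC arrays (blue) for Fgfr1, Fgfr2 and Fgfrl1, and ESC array 8 stands apart for Fgfr3 at 4.07.

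Of the 10 feedback and target genes, 3 fell, 2 rose and 5 were not called. All 10 reached log2 4, and 50% were called, a share near the 43.6% of all genes that reached log2 4. Etv5, an ETS factor induced by ERK, fell the most. It read 11.40, 11.49, 11.30 and 11.58 on ESC arrays and 9.04, 9.34, 9.02, 9.20 and 8.77 on embryoid body arrays, both far above the floor. Etv5 fell by 2.37 (SE 0.11, 95% interval -2.62 to -2.12, adjusted p = 8.93e-07 by limma), a 5.18-fold drop of rank 122 among the falls. Its other 2 probe sets fell by 2.82 (SE 0.17) and 2.65 (SE 0.12). Etv4, the related factor, read 6.16, 6.14, 6.66 and 6.68 in ESCs and 6.44, 6.47, 6.48, 6.49 and 6.75 in embryoid bodies, with overlapping groups and a difference of 0.11 (SE 0.14, adjusted p = 0.495 by limma).

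The Sprouty genes code for inhibitors of Ras activation by receptor kinases. Spry4 read 8.45, 8.51, 8.60 and 8.11 on ESC arrays and 7.24, 7.49, 7.54, 7.30 and 7.38 on embryoid body arrays, and fell by 1.03 (SE 0.11, adjusted p = 9.61e-05 by limma). A second Spry4 probe set differed by -0.63 (SE 0.21) and was not called (adjusted p = 0.0599), and the other 2 lay near the floor, so the mean over all 4 fell by 0.44. Spry2 read 10.39, 10.27, 10.33 and 10.32 on ESC arrays and 9.87, 9.92, 9.91, 10.07 and 9.97 on embryoid body arrays. It fell by 0.38 (SE 0.05, adjusted p = 0.000439 by limma) but without overlap, and by 0.22 as a mean with its other probe set, which was not called. Spry1 read 8.37, 8.47, 7.32 and 7.60 on ESC arrays and 8.25, 8.15, 8.23, 8.43 and 8.02 on embryoid body arrays, and its difference of 0.28 (SE 0.23, 95% interval -0.25 to 0.81) was not called (adjusted p = 0.335 by limma). The ESC values of Spry1 lay in a high and a low pair around the embryoid body values.

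Dusp4 and Dusp6 code for phosphatases that dephosphorylate ERK and related kinases, and both rose. Dusp4, a nuclear phosphatase, read 7.83, 7.83, 8.70 and 8.77 on ESC arrays and 9.07, 9.12, 8.93, 9.21 and 9.05 on embryoid body arrays, and rose by 0.79 (SE 0.21, adjusted p = 0.0258 by limma). Leaving out embryoid body array 1, 3 or 7 or ESC array 2 or 6 moved its adjusted p to between 0.0576 and 0.0645. Dusp6, a cytoplasmic phosphatase selective for ERK, read 10.52, 10.55, 10.38 and 10.24 on ESC arrays and 10.70, 10.79, 10.64, 10.92 and 10.85 on embryoid body arrays, and rose by 0.36 (SE 0.08, adjusted p = 0.0101 by limma). Spred1, Spred2 and Il17rd (Sef), inhibitors of Ras and of MEK output, differed by 0.04, -0.12 and -0.13 and were not called, with 95% intervals that lay within -0.31 and 0.17. None of the other 7 probe sets of Spred1 and 4 of Spred2 was called either. The adaptor Grb2, which links receptors to Sos and Ras, read 8.29 to 8.44 on the 9 arrays and was not called (difference 0.02, 95% interval -0.08 to 0.13).

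**Figure D4:**
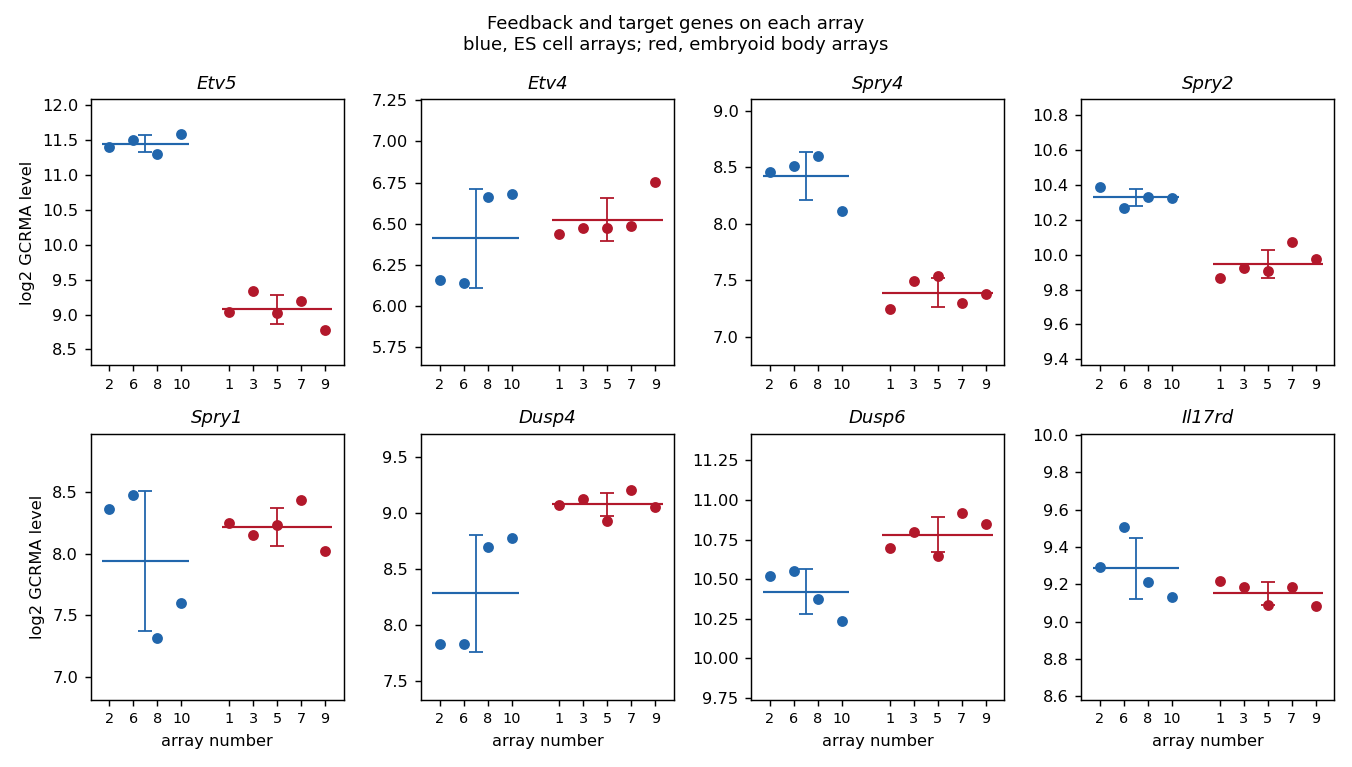
Log2 GCRMA level (vertical axes, each with its own range) of 8 feedback and target genes on each array (horizontal axis, array numbers), with ESC arrays in blue, embryoid body arrays in red, group means and bars of 1 SD. Etv5, Spry4 and Spry2 are lower on every embryoid body array, Dusp4 and Dusp6 higher, and the ESC arrays of Spry1, Dusp4 and Etv4 fall into pairs 2 and 6 against 8 and 10.

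Within each group, some FGF genes differed between arrays of lower number (1 to 6) and of higher number (7 to 10). The labels do not say what the numbers stand for, so this is given as a description with no test. Taken as higher minus lower numbers, the mean log2 level of Fgf5 differed by -0.64 in ESCs and -0.65 in embryoid bodies. Spry1 differed by -0.96 and Fgfrl1 by -0.63 in ESCs, against 0.02 and 0.31 in embryoid bodies. Dusp4 differed by 0.91 and Etv4 by 0.52 in ESCs, against 0.09 and 0.16 in embryoid bodies. Fgf8 differed by -0.26 in ESCs and -0.79 in embryoid bodies. Some markers of other cell types also differed between the pairs of ESC arrays. Col1a1 read 6.98 and 6.78 on arrays 2 and 6 but 9.03 and 9.02 on arrays 8 and 10. Actc1, a muscle actin, read 6.14 and 6.91 but 8.42 and 8.15. As higher minus lower numbers in ESCs, Col3a1 (2.51) and Kdr (1.17) went the same way. Other markers of the same lists differed little, with Col1a2 at 0.24, Postn at 0.03, Myl7 at 0.05, Gata4 at -0.08 and Hand1 at -0.05. Among embryoid bodies, Pou5f1 read 9.54, 9.71 and 9.36 on arrays 1, 3 and 5 but 8.53 and 8.17 on arrays 7 and 9. The pluripotency markers were mixed there. As higher minus lower numbers, Nanog (-1.15), Utf1 (-0.92) and Zfp42 (-0.69) went the same way as Pou5f1. Sox2 (-0.08) and, on its _x_at probe set, Esrrb (-0.08) differed little, and Klf4 (0.51) went the other way. The part of these markers in the shifts was not tested.

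**Figure D5:**
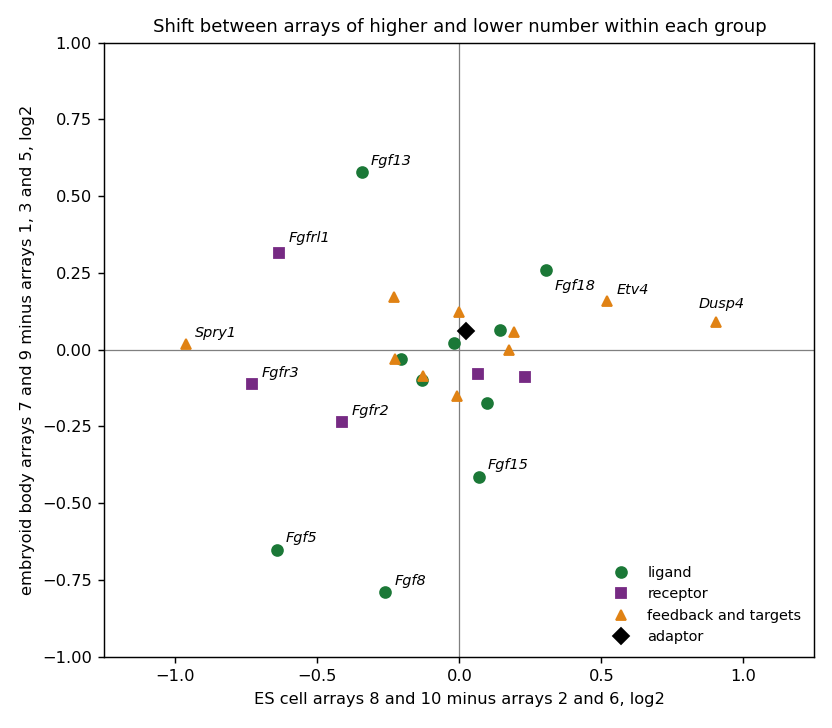
Difference in log2 level between arrays of higher and lower number within ESCs (horizontal axis) and within embryoid bodies (vertical axis) for the 26 FGF genes that reached log2 4 on at least 1 array, by role. Fgf5 lies low on both axes (-0.64 and -0.65), Spry1 lies at -0.96 and 0.02 and Dusp4 at 0.91 and 0.09.

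Within arrays 1 to 6 and within arrays 7 to 10, Fgf4 fell by 5.64 and 5.91, Etv5 by 2.32 and 2.46, Spry4 by 1.06 and 1.02 and Fgf17 by 0.95 and 1.03, while Fgf15 rose by 3.21 and 2.73 and Fgfr2 by 0.89 and 1.06, and these 6 genes were called in both ranges. So were Fgfr1, which rose by 0.84 and 0.52, and Spry2, which fell by 0.43 and 0.30. Fgfrl1 differed by 0.39 (adjusted p = 0.0628 by limma) in the lower range and 1.34 in the higher, and Dusp6 by 0.18 (adjusted p = 0.104) and 0.58. Dusp4 rose by 1.21 and 0.39 and was called in both. Fgf8 differed by 0.99 and by 0.46 (adjusted p = 0.137), and Fgf13 by -0.98 (adjusted p = 0.00829) and -0.05. Spry1 differed by -0.21 in the lower range, with no call, and by 0.77 in the higher, where it was called (adjusted p = 0.00816). Etv4 differed by 0.31 in the lower range, where it was called (adjusted p = 0.0412), and by -0.05 in the higher, with no call. With the number range as a block in the fit, the same counts of ligands, receptors and feedback genes were called. The lower range compared ESC arrays 2 and 6 with embryoid body arrays 1, 3 and 5. The higher range compared ESC arrays 8 and 10 with embryoid body arrays 7 and 9. In both, the spread was taken over all 9 arrays. The ranges were chosen with earlier results of these data known, so calls within a range are a description.

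Beyond these genes, a list of 71 other genes of FGF and ERK signalling was followed, of which 62 had a probe set of their own. In embryoid bodies 30 of the 62 rose, 9 fell and 23 were not called, which is 62.9% called beside 30.4% of all genes, with a median difference of 0.27. Of the 54 that reached log2 4 on an array 72.2% were called, beside 43.6% of such genes. This list was chosen with earlier results of these data known, so the shares are a description. Of 25 co-receptors and genes of heparan sulfate, the sugar chain that FGFs need to bind their receptors, 14 rose and 2 fell. That is 64.0% called, near the share of the whole list. Of 6 glypicans, heparan sulfate proteins of the cell surface, 4 rose and Gpc4 and Gpc5 were not called. Gpc6 rose by 4.22 (SE 0.34, from 4.39 ± 0.85 to 8.61 ± 0.18) and Gpc3 by 3.32 (SE 0.09, from 8.02 ± 0.20 to 11.35 ± 0.08). Gpc6 also differed within ESCs, at 3.89 and 3.44 on arrays 2 and 6 but 5.12 and 5.10 on arrays 8 and 10. Flrt3, a membrane protein that binds FGF receptors, rose by 3.68 (SE 0.05, from 5.31 ± 0.07 to 8.99 ± 0.05), and Hs6st2, a heparan sulfate sulfotransferase, by 2.68 (SE 0.26). Of the 2 carriers that release FGFs from the matrix, Fgfbp1 fell by 3.30 (SE 0.23, from 8.36 ± 0.07 to 5.07 ± 0.50) and Fgfbp3 rose by 2.17 (SE 0.57, from 4.65 ± 0.75 to 6.82 ± 1.09).

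Of 20 adaptors and kinases of the ERK cascade, 8 rose and 4 fell (60% called, beside 30.4% of all genes). Gab1, a docking protein, fell by 1.72 (SE 0.07, from 10.86 ± 0.08 to 9.14 ± 0.13), and Map2k1, the kinase MEK1, fell by 0.71 (SE 0.06). Their relatives Gab2 and Map2k2 rose by 1.67 (SE 0.11) and 0.26 (SE 0.06). The largest rises of this group were those of Rps6ka3 (2.12, SE 0.13) and Sos2 (1.78, SE 0.25). Of 17 other inhibitors and ERK targets, 8 rose and 3 fell (64.7% called). Elk3, an ETS factor, rose by 2.78 (SE 0.35). The phosphatases Dusp1 and Dusp9 fell by 1.26 (SE 0.10) and 1.0 (SE 0.11), opposite in direction to Dusp4 and Dusp6. Dusp7 rose by 0.70 (SE 0.13), and Dusp2, Dusp5 and Dusp10 were not called. The syndecan Sdc4 fell by 0.66 (SE 0.15, adjusted p = 0.0123 by limma), whereas Sdc1 rose by 1.48 (SE 0.13) and Sdc2 by 1.79 (SE 0.21). Sdc3 was not called.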

How the data were processed

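RNA of 4 ESC and 5 embryoid body samples had been hybridised to 1-colour Affymetrix mouse arrays. The deposited values are linear intensities, 1 column per array, made by the authors with GCRMA, which corrects background by probe sequence, normalizes between arrays and summarises probes into probe sets. Whether the 9 arrays were normalized on their own was not given in the sources used here. The number of arrays limits the precision. Log2 of these deposited intensities was taken, 64 control probe sets of 45101 were left out, and 45037 were fitted with limma (version 3.58.1 in R 4.3.3, lmFit and eBayes with trend and robust, two-sided) without covariates. Genes were called at a Benjamini-Hochberg adjusted p under 0.05. Of the probe sets, 34945 were paired with 1 symbol, for 18193 genes. Log2 4 was taken as the upper edge of the floor for every probe set. Some probe sets above it gave the same reading on separate arrays. Fgf9 did so on ESC arrays 8 and 10 (5.466) and Fgfr4 on ESC arrays 2 and 8 (4.186). Fgf3 did so on ESC array 2 and embryoid body array 7 (4.877). Such readings may lie at a floor of their own probe set, which was not tested. The fit was tested on simulated data. The FGF genes, the pathway list, the markers and the array number ranges were chosen with earlier results of these data known. Values on every array are given for called genes at least 2-fold apart and for genes whose probe sets differ in call, and for other genes of interest. Of the pathway list, the 6 largest called rises and falls without overlap are named, with some other genes of the list beside them. Alternatives covered normalization, centring, the pseudocount, the variance model, array weights, a filter, the choice of probe set, a 2-fold threshold, the array number range and each array left out. Promoter sequences and gene order are from RefSeq (GRCm38.p6).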

Additional observations from a re-analysis of the deposited data

Results flagged for a closer look

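In 14 cases among 13 FGF genes, the highest or lowest array of a group lay far from the rest of its group by Dixon's criterion, out of 76 groups examined, a criterion that chance alone meets in about 5% of groups. The gap to the next array exceeded 0.25 on the log2 scale in 5 of these. ESC array 8 read 4.07 for Fgfr3, where the other ESC arrays reached up to 5.53, and 6.35 for Fgf18, where the lowest ESC array read 5.76. ESC array 10 read 4.59 for Fgf3, and ESC array 6 read 3.03 for Fgf11, a gene under log2 4 throughout. Embryoid body array 9 read 6.75 for Etv4. The smaller gaps were those of Fgfr1 on embryoid body array 3 (9.59), Fgfr4 on embryoid body array 1 (4.41) and Fgf9 on ESC array 6 (5.50). The rest were near the floor, with ESC array 10 at 3.06 for Fgf1, 3.21 for Fgf2, 3.39 for Fgf7 and 2.84 for Fgf16, and embryoid body array 1 at 2.92 for Fgf16 and 2.69 for Fgf12.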

How the results depend on the processing

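Of 782 values recomputed for single FGF genes, 709 kept their direction and their side of the threshold, 22 lost the call, 17 gained one and 34 changed sign. Of the sign changes, 2 were in called genes, -0.022 for Fgfr1 and -0.0023 for Fgfr2 with plain _at probe sets, both near the floor, and 32 were in 12 genes that were called on neither side. Among the latter, quantile normalization gave 0.0087 for Fgf1, 0.012 for Fgf10, 0.026 for Fgf21, 0.015 for Fgf23 and -0.031 for Grb2, and centring on array medians gave 0.012 for Fgf21. Array weights gave -0.017 for Fgf16 and 0.015 for Fgf21. Means over probe sets gave 0.0037 for Fgf9, -0.034 for Fgfr4, -0.0084 for Etv4 and -0.015 for Grb2, and the plain _at probe set gave -0.069 for Fgfr4. Within arrays 1 to 6, Fgf21 was at 0.016 and Spry1 at -0.21, and within arrays 7 to 10, Fgf16 was at -0.022, Fgfr4 at -0.047, Spred1 at -0.048 and Etv4 at -0.051. With single arrays left out, Fgf5 ranged from -0.20 to 0.041, Fgf16 from -0.027 to 0.012, Fgf21 from -0.028 to 0.0080, Fgfr4 from -0.016 to 0.052 and Spred1 from -0.0053 to 0.075.

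At least 2-fold, 1 ligand, 0 receptors, 0 feedback genes and 16 pathway genes rose, and 1 ligand, 0 receptors, 2 feedback genes and 4 pathway genes fell. With plain _at probe sets, 1 of 20 ligands and 0 of 4 receptors rose. Fgf2, Fgf8 and Fgfrl1 have no such probe set and were not tested. The plain _at probe sets of Fgfr1 and Fgfr2 read near the floor and were not called, with differences of -0.022 and -0.0023. Within arrays 7 to 10, 1 ligand rose. The number of ligands that fell was 4 after quantile normalization, 4 after centring on array medians and 6 with array weights, against 2. The cause was not tested. With single arrays left out, 1 to 2 ligands and 1 to 2 feedback genes rose and 2 to 5 ligands fell. The number range as a block changed no count. No paired analysis was possible because the groups share no array number. Under log2 4, signal over background limits what differences could be seen.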
